A study of Homo sapiens with 12 samples.

Results

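RCC4 is an established cell line from a clear cell renal carcinoma, and its response to joint knockdown of MESH1 and ATF4 was compared with what the single knockdowns would give if they simply added. All 12 arrays entered, 3 biological replicates in each of 4 groups: RCC4 cells transfected with control siRNA that targets no gene (siNT), with siMESH1, which is 1 siRNA sequence, with siATF4, which is a siRNA pool, or with both of the latter (siMESH1+siATF4, the double knockdown). Every culture received 40 pmol of siRNA and was collected after 72 h. How the 40 pmol was divided in the double knockdown is not given in the sources used here, so the part of the dose in any result was not tested. The interaction of a gene is the siMESH1 effect in siATF4 cells (double minus siATF4) less the siMESH1 effect in siNT cells, which equals the double knockdown less the sum of both single knockdowns. Genes with such a departure from additivity were found among 11963 genes with limma, at an adjusted p under 0.05 and an absolute log2 value of 0.5 or more, equal to 1.41-fold. The rule called 516 genes, 4.31% of those tested, of which 414 (3.46%) lay higher and 102 (0.853%) lower in the double knockdown than the sum.

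MESH1, the product of HDDC3, removes a phosphate from NADPH and is the animal relative of the bacterial enzymes that degrade the stringent response alarmone. ATF4 is a leucine zipper transcription factor whose translation rises in the integrated stress response, and it drives genes of amino acid supply and redox balance. In an additive response each knockdown shifts a transcript by the same log2 amount whether or not the other gene is silenced. A positive interaction therefore describes a fall that was smaller than the sum, or a rise that was larger, and a negative interaction the reverse.

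All values are log2 signals relative to the siNT mean of the same gene, so they are differences and no absolute level is known. ATF4 itself read -2.29, -2.33 and -2.30 in siATF4, and -2.27, -2.46 and -2.23 in siMESH1+siATF4, against -0.10 to 0.10 in siNT. The ranges of both groups that received its siRNA overlapped and lay far below the other arrays. The double knockdown differed from siATF4 by -0.02 (SE 0.070, limma adjusted p = 0.93). HDDC3 had no named probe set, so the depth of MESH1 silencing was not analysed here. Defining markers of leukocytes and endothelium gave 0 called genes in the interaction among 19 measured, with a list median of -0.05, and 0 of the 19 passed an adjusted p under 0.05 in limma (3 at an unadjusted p under 0.05). That count is close to the 4.31% called over all genes, and differences from siNT cannot show whether such cells were present. Since no level is known, the presence of renal markers such as PAX8 was not checked. The hybridisation spike-ins of the arrays had an interaction of -0.17, and the 3 prime minus 5 prime difference of the RNA quality probe sets had one of 0.10 for ACTB and -0.01 for GAPDH.

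A scaling question touched the direction of many small values. The mean of 11 housekeeping genes was -0.36 to -0.32 in siMESH1, -0.17 to -0.13 in siATF4 and -0.23 to -0.22 in the double knockdown, which gives that mean an interaction of 0.26. Centring each array on it moved the median interaction of all genes from -0.02 to -0.28 and turned the split of 414 higher and 102 lower calls into 196 and 1261. The 516 genes kept the sign of their interaction under that centring, and 298 of them, 196 higher and all 102 lower, were still called in the same direction. Of the 11 housekeeping genes, TFRC (0.80) and HPRT1 (0.66) were themselves called higher in the interaction. The housekeeping mean is therefore not independent of the interaction. Additivity was defined on the log2 scale. On linear ratios to siNT, 186 genes were called, 118 higher and 68 lower, and 515 of the 516 kept their sign.

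**Figure D1:**
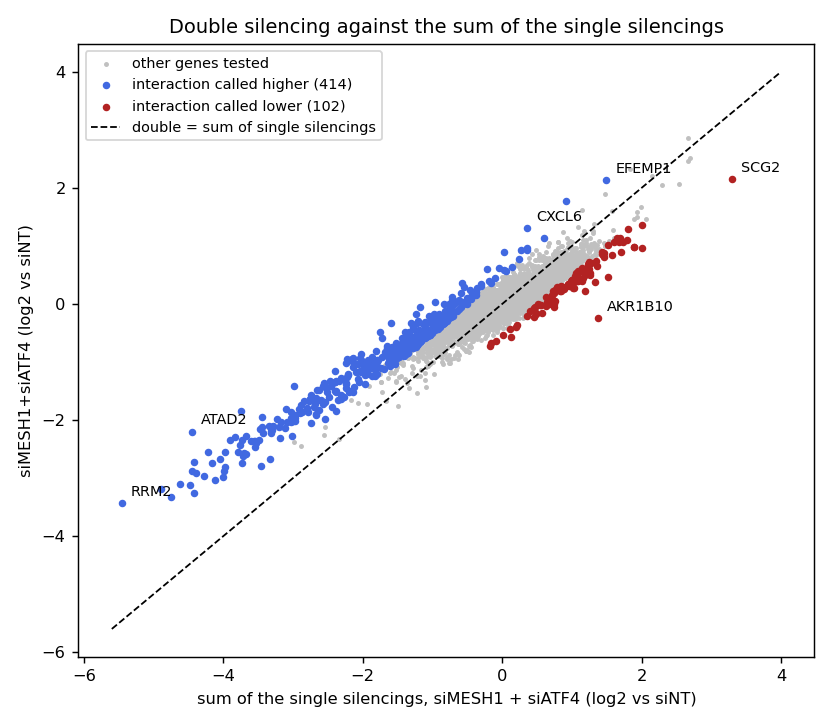
Log2 difference from siNT in the double knockdown (vertical) against the sum of both single knockdowns (horizontal), 1 point per gene. Blue points are the 414 genes called higher and red points the 102 called lower; the blue arm of genes that fell runs above the dashed line of additivity, RRM2 at a sum of -5.46 and a double value of -3.43.

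Promoters are shown for 5 of the 8 genes that had the 4 largest positive and 4 largest negative interactions, so that genes of both signs can be set side by side. ATAD2, AKR1B10 and SCG2 are the other members of the 8. Each line gives the 130 bases before the annotated transcription start, from RefSeq on GRCh38.p14, read 5′ to 3′ on the strand of the gene. Capitals mark matches, on either strand, to any of the motifs searched. RRM2, NDC80 and SHCBP1 had positive interactions, and KCNJ13 and TP53I3 negative ones.
RRM2 (chr2:10122609-10122738, plus strand): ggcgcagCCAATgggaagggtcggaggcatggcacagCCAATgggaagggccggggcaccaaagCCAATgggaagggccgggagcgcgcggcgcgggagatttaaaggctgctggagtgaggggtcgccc
NDC80 (chr18:2571427-2571556, plus strand): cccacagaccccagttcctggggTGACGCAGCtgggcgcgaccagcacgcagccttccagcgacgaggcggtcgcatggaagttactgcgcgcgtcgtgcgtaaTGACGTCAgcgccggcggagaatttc
SHCBP1 (chr16:46621380-46621509, minus strand): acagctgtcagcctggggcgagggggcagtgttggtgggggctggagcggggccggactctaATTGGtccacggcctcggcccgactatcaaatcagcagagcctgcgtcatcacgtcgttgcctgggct
KCNJ13 (chr2:232776566-232776695, minus strand): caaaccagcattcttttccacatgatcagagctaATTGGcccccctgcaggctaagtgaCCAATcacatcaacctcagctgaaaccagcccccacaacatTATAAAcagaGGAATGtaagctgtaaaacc
TP53I3 (chr2:24084835-24084964, minus strand): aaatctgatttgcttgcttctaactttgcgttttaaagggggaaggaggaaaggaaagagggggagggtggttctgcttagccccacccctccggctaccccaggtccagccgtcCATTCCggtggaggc

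RRM2 carried 3 copies of the CCAAT box, at -123, -93 and -66 from the start, and SHCBP1 a reversed copy at -68. NDC80 held a palindromic cAMP response element, TGACGTCA, from -26 to -19, and a match to the antioxidant response element core, TGACNNNGC, from -107 to -99. KCNJ13 held both a TATA box, TATAAA, at -30 and CCAAT on either strand. The marked letters of TP53I3, and those at -20 in KCNJ13, match the TEAD site GGAATG. The cell cycle genes homology region, written here as TTTGAA, lay across the start of NDC80 and at 14 to 19 after the start of SHCBP1, outside the bases printed.

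The same search was run on both strands from 250 bases before to 50 after the start, over 9562 of the 11963 genes tested and 183 of the 220 genes that fell in both single knockdowns and had a positive interaction. TTTGAA stood in 36.1% of those 183 promoters, beside 11.0% of the genes tested and 15.4% of all 27305 promoters in the table. CCAAT stood in 59.6% of the 183, beside 37.3% and 35.7%, and both motifs together in 26.2%, beside 4.65% and 6.08%. An E2F site in either form, TTTCGCGC or TTTGGCGC, was found in 13.1% of the 183, beside 1.83% and 1.18%. Of 159 genes called lower in siMESH1 but not in siATF4, with a positive interaction, 127 had a promoter. In these, TTTGAA stood in 11.0% and CCAAT in 35.4%, close to the shares over the genes tested. The C/EBP-ATF response element TGATGNAAN, the composite site that ATF4 shares with C/EBP proteins, stood in 1.64% of the 183 promoters, 0.787% of the 127, 2.25% of the genes tested and 3.67% of all promoters. The shares over all promoters were 1.98% for TGACGTCA, 13.6% for TGACNNNGC, 14.0% for GGAATG, 12% for TATAAA, 7.76% for the AP-1 site TGANTCA and 1.92% for the NF-kB site. In the 183, the 127 and the genes tested, TGACGTCA stood in 5.46%, 0.0% and 3.06%, and TGACNNNGC in 16.9%, 22.0% and 14.9%. For GGAATG these shares were 11.5%, 9.45% and 11.3%, and for TATAAA 5.46%, 7.09% and 8.3%. The AP-1 site had 2.19%, 6.3% and 5.43%, and the NF-kB site 1.64%, 2.36% and 2.1%. Motifs can share bases, and an AP-1 match with C at its N that is followed by GC is also counted under TGACNNNGC. These matches describe letters and not binding, and no test was run on them.

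The effect of MESH1 knockdown was smaller in cells that also received siATF4. Without ATF4 knockdown, siMESH1 changed 980 genes, 8.19% of those tested, 337 higher (2.82%) and 643 lower (5.37%). Between siATF4 and siMESH1+siATF4, which share no arrays with the first pair, 195 genes were called, 1.63%, 42 higher (0.351%) and 153 lower (1.28%). Of the genes lower in siNT cells, 143 were also lower in siATF4 cells, which is 22.2% of the first list and 93.5% of the second, and for the rises it was 27 genes, 8.01% and 64.3%. No gene was called in opposite directions. The median of the 643 falls went from -0.78 in siNT cells to -0.27 in siATF4 cells, and the median of the 337 rises from 0.63 to 0.26. These medians start from genes chosen for a large effect in siNT cells. When chosen for their effect in siATF4 cells instead, the 153 falls had a median of -0.68 there and -1.48 in siNT cells, while the 42 rises had 0.59 and 0.64. Over all genes tested the SD of the siMESH1 effect was 0.33 in siNT cells and 0.17 in siATF4 cells, values that centring does not touch. After housekeeping centring the calls were 2526 higher and 291 lower in siNT cells against 91 and 113 in siATF4 cells.

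**Figure D2:**
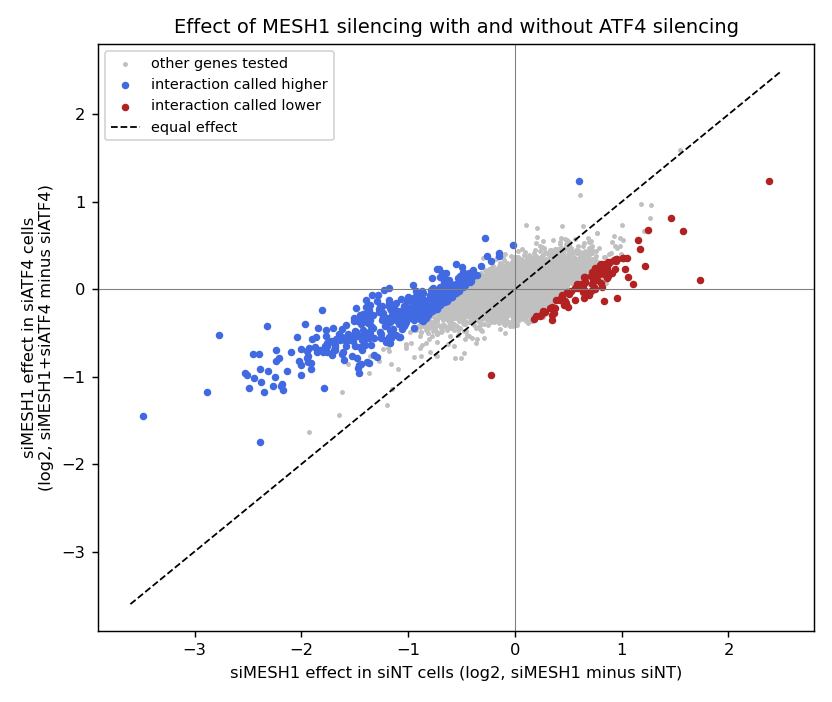
Effect of MESH1 knockdown on each gene in siNT cells (horizontal, log2) and in siATF4 cells (vertical, log2), 2 pairs of groups that share no arrays. Points spread less vertically (SD 0.17) than horizontally (SD 0.33), and the genes with a positive interaction (blue) lie above the dashed line of equal effect, most of them at the left.

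Seen from the other side, ATF4 knockdown changed 780 genes in siNT cells, 6.52%, 298 higher (2.49%) and 482 lower (4.03%), and 730 in siMESH1 cells, 6.1%, 409 higher (3.42%) and 321 lower (2.68%). Of the 482 falls, 174 were also called lower in siMESH1 cells, 36.1% of the first list and 54.2% of the second, and the median over the 482 was -0.80 in siNT cells and -0.34 in siMESH1 cells. The rises in siNT cells had a median of 0.63 there and 0.57 in siMESH1 cells. These medians again start from genes chosen in siNT cells, and the direction turned when genes were chosen in siMESH1 cells. The 321 falls called there had a median of -0.65 there and -0.53 in siNT cells, and the 409 rises 0.67 and 0.43. The SD over all genes was 0.29 in siNT cells and 0.26 in siMESH1 cells. Housekeeping centring turned the splits of both comparisons, to 681 higher and 324 lower in siNT cells and to 262 higher and 549 lower in siMESH1 cells.

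The 516 genes were sorted by what each single knockdown did to them, which is a description because the parts share arrays with the interaction. In 220 genes both single knockdowns lowered the transcript and the interaction was positive. The median of these genes was -1.25 in siMESH1 and -1.04 in siATF4, a sum of -2.32, and -1.40 in the double knockdown. Against siNT the double knockdown changed 1154 genes, 9.65% of those tested, 526 higher (4.4%) and 628 lower (5.25%). In 159 genes with a positive interaction the fall was called in siMESH1 alone, with medians of -0.82 in siMESH1, -0.15 in siATF4 and -0.33 in the double knockdown. Here alone means that the other single knockdown was not called, which the minimum of 0.5 can decide. HPRT1 and ACLY are in this form although siATF4 lowered them by 0.49 and 0.35 (limma adjusted p = 9.2e-06 and 0.00017). Among negative interactions, 54 genes rose in siMESH1 alone (medians 0.80, 0.12 and 0.36) and 21 rose in both single knockdowns (medians 0.79, 0.83 and 0.97). The remaining 62 genes were spread over the other forms. The interaction was at least 1 on the log2 scale in 98 of the positive and 4 of the negative genes.

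**Figure D3:**
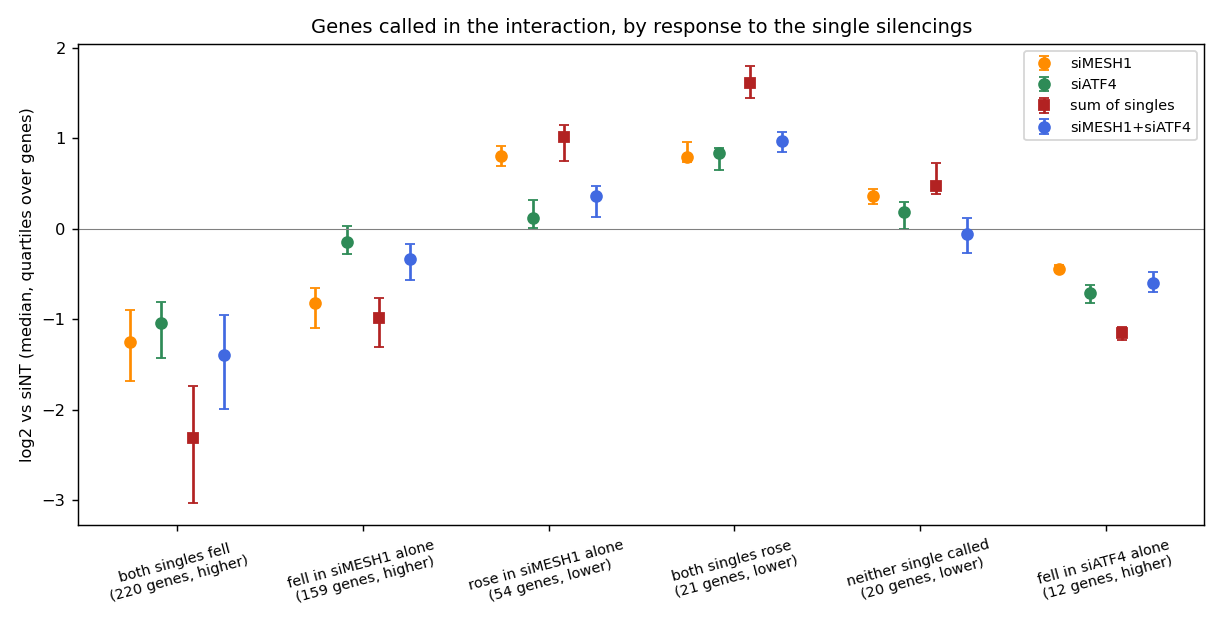
Median and quartiles, over the genes of each response form, of the log2 difference from siNT in siMESH1, siATF4, the double knockdown and the sum of the singles. The blue double value lies nearer to 0 than the red sum in each form shown, -1.40 against -2.32 in the 220 genes that fell in both single knockdowns.

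The genes that fell in both single knockdowns were led by the machinery of DNA replication and mitosis. Of 60 measured genes of cell cycle and mitosis, 57 had a called positive interaction and 0 a negative one, and the list median was 1.07 beside -0.02 over all genes. These genes fell by a median of 1.73 in siMESH1 and 1.43 in siATF4, and the double knockdown stood at -1.98. DNA replication and nucleotide supply gave 40 of 50 higher and 0 lower, with a median interaction of 0.80. DNA repair and checkpoint genes gave 13 of 27 higher and 0 lower, with a median of 0.52. These counts cover all positive calls, and not every such gene was called lower in both single knockdowns. In the replication and repair lists, POLD1, CLSPN, TIPIN, PARP1, RAD54B and WEE1 were called lower in siMESH1 only, and CHEK1 in siATF4 only. Under housekeeping centring the 3 lists still had 51, 29 and 6 members called higher and 0 lower. RRM2 is a gene that the study itself picked for these pathways, so its membership is not independent.

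ATAD2, a chromatin-bound ATPase with a bromodomain that is made in proliferating cells, had the largest interaction. It read -2.90, -2.63 and -2.78 in siMESH1, -1.70, -1.75 and -1.58 in siATF4, and -2.22, -2.29 and -2.08 in the double knockdown, with siNT at -0.05, 0.10 and -0.05. The 4 groups did not overlap, and the double arrays lay between the single knockdowns. The interaction was 2.25 (SE 0.11, limma adjusted p = 6.3e-07), a fold of 4.75 over the sum. Among the 220 genes it was the one whose double value was called above siMESH1, by 0.57 (adjusted p = 0.00017 in limma), while in siNT cells ATF4 knockdown lowered it by 3.20-fold.

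RRM2, the small subunit of ribonucleotide reductase that supplies deoxynucleotides, fell to a like range in siMESH1 and in the double knockdown. Its values were 0.15, -0.10 and -0.05 in siNT, -3.66, -3.38 and -3.41 in siMESH1, -1.88, -2.07 and -1.97 in siATF4, and -3.30, -3.63 and -3.36 in the double knockdown. The double arrays overlapped those of siMESH1 and lay below all siATF4 arrays. MESH1 knockdown thus lowered RRM2 by 11.2-fold in siNT cells and 2.74-fold in siATF4 cells, and the interaction was 2.03 (SE 0.15, limma adjusted p = 5.1e-06).

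NDC80, a subunit of the kinetochore complex that holds microtubules, behaved more like ATAD2. It stood at 0.07, 0.05 and -0.12 in siNT, -2.38, -2.43 and -2.15 in siMESH1, -1.21, -1.51 and -1.56 in siATF4, and -1.75, -1.92 and -1.86 in the double knockdown. Each group was separate from the others, and the interaction was 1.90 (SE 0.14, limma adjusted p = 5.1e-06). NCAPG, a condensin subunit, and SHCBP1 both had interactions of 1.71, MAD2L1 of the spindle checkpoint 1.66, the mitotic kinesin KIF2C 1.57, the repressor E2F8 1.57 and the replication factor CDC45 1.54.

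Other members of this class fell further in the double knockdown than in either single knockdown, yet by less than the sum. DLGAP5, a protein of the mitotic spindle, read 0.07, 0.08 and -0.16 in siNT, -2.44, -2.40 and -2.49 in siMESH1, -2.18, -2.53 and -2.24 in siATF4, and -3.21, -3.52 and -3.27 in siMESH1+siATF4. The single knockdowns overlapped each other, and the double arrays lay below both. Its interaction was 1.42 (SE 0.15, limma adjusted p = 4.2e-05). Of the 220 genes, 149 had a double mean beyond both single means, 66 had one between them and 5 had one nearer to siNT than both. The double knockdown differed from siMESH1 at an adjusted p under 0.05 in 89 of the 220, lower in 79 and higher in 10, and in 219 it remained called below siNT.

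For 22 of the genes with a positive interaction the sum of the single knockdowns lay below -3.77, the lowest value anywhere in the table, and RRM2 had the lowest sum at -5.46. The other 392 had a sum above that value. Without absolute signals a floor of the arrays could not be measured, and its part was not tested. In bulk RNA, fewer cells in division and less RNA per dividing cell cannot be told apart.

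Some members of this class came from other gene lists. EGR1, an immediate early gene of growth factor signalling, read 0.12, 0.07 and -0.19 in siNT, -1.52, -1.60 and -1.64 in siMESH1, -1.55, -1.46 and -1.33 in siATF4, and -1.97, -2.12 and -2.00 in the double knockdown, for an interaction of 1.01 (SE 0.12, limma adjusted p = 0.00012). Its double arrays lay below both single knockdowns, which overlapped. MTHFD2, the mitochondrial folate enzyme and a known ATF4 target, fell by 1.25 in siMESH1, 0.88 in siATF4 and 1.43 in both, and SLC1A4, a neutral amino acid transporter, fell by 0.60, 0.67 and 0.63. Their interactions, 0.70 and 0.64, were below the call minimum at 0.44 and 0.38 after housekeeping centring. BIRC5, which encodes survivin and was listed here under YAP and TAZ targets, had 0.97. The histone variant gene H2AZ1 had 0.81 and the collagenase gene MMP1 0.64, whose limma adjusted p became 0.059 with unmoderated variances.

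**Figure D4:**
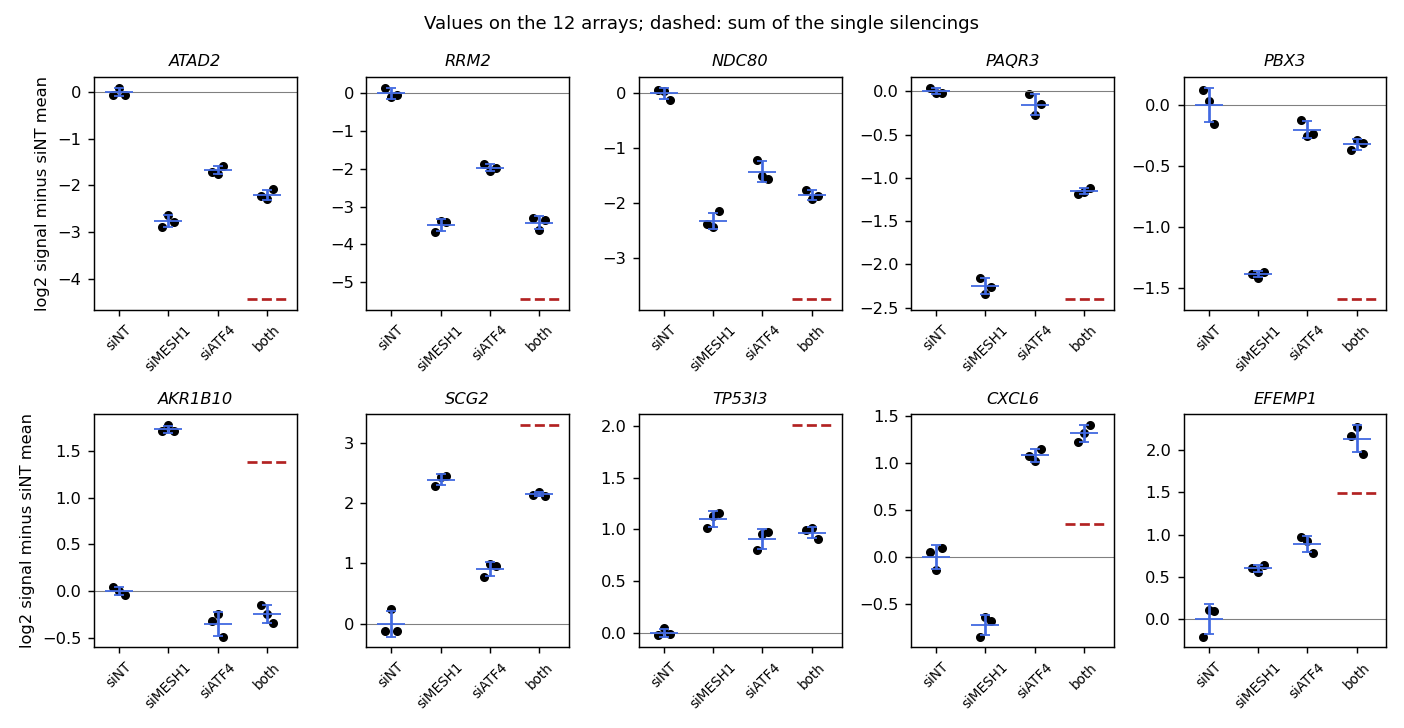
Log2 signal minus the siNT mean on each of the 12 arrays (dots) for 10 genes, with group mean and SD (blue) and the sum of the single knockdowns drawn over the double group (red dashes). The double arrays lie above the sum in ATAD2, RRM2, NDC80, PAQR3, PBX3, CXCL6 and EFEMP1, and below it in AKR1B10, SCG2 and TP53I3.

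A second class fell when MESH1 alone was silenced, and stood closer to siNT when ATF4 was silenced too. In 108 of its 159 genes the double knockdown was not called different from siNT, in 50 it was called lower, and in 1 higher. The double knockdown lay above siMESH1 at an adjusted p under 0.05 in 143 of the 159, and its mean fell between the single means in 142. Double minus siMESH1 equals the interaction plus the siATF4 effect. These genes were selected for a positive interaction and an uncalled siATF4 effect, so a double value above siMESH1 largely follows from the selection. All these counts share arrays with the rule and are a description only. Under housekeeping centring 41 of these 159 were still called, and on linear ratios, with the minimum in ratio units, 5.

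PAQR3, a Golgi membrane protein that binds RAF kinase, read -2.15, -2.34 and -2.25 in siMESH1, -0.04, -0.28 and -0.15 in siATF4, and -1.19, -1.16 and -1.11 in the double knockdown, with siNT at 0.04, -0.02 and -0.02. No groups overlapped, and the double knockdown stood about midway. The siMESH1 effect was a 4.75-fold fall in siNT cells and a 2.00-fold fall in siATF4 cells. The interaction was 1.25 (SE 0.09, limma adjusted p = 5.1e-06). On linear ratios it was 0.34 in ratio units, under the minimum of that scale and not comparable in size with the log2 value.

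For PBX3, a homeodomain transcription factor, the fall was nearly absent in siATF4 cells. Its arrays read 0.12, 0.03 and -0.15 in siNT, -1.38, -1.42 and -1.37 in siMESH1, -0.12, -0.25 and -0.24 in siATF4, and -0.37, -0.29 and -0.31 in the double knockdown. The siMESH1 arrays stood apart from all others. MESH1 knockdown lowered PBX3 by 2.62-fold in siNT cells, whereas in siATF4 cells the difference was -0.12 (SE 0.067, limma adjusted p = 0.32), and the interaction was 1.27 (SE 0.10, limma adjusted p = 5.1e-06). EOGT, which adds N-acetylglucosamine to secreted proteins, had an interaction of 1.27, SFXN1, the mitochondrial serine carrier, 1.16, and PTS, an enzyme of tetrahydrobiopterin synthesis, 1.15.

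Several genes of this class are named from the gene lists. TFRC, the transferrin receptor that imports iron, read -1.19, -1.12 and -1.20 in siMESH1, -0.02, 0.04 and 0.07 in siATF4, and -0.37, -0.33 and -0.32 in the double knockdown. The siATF4 arrays overlapped siNT at -0.03 to 0.04, and the double arrays lay between these and siMESH1. Its interaction was 0.80 (SE 0.07, limma adjusted p = 1.1e-05), and 0.54 after housekeeping centring, a set to which TFRC itself belongs. CA12, a carbonic anhydrase of the hypoxia response, read -0.08, 0.08 and 0.00 in siNT, -1.62, -1.62 and -1.58 in siMESH1, -0.04, -0.06 and -0.04 in siATF4 and -0.81, -0.68 and -0.81 in both, an interaction of 0.89 (SE 0.08, limma adjusted p = 1.4e-05). ACLY, the enzyme that makes cytosolic acetyl-CoA and a gene the study chose to follow, read 0.03, 0.01 and -0.04, then -1.46, -1.41 and -1.48, then -0.39, -0.38 and -0.27, then -1.03, -0.98 and -1.01 in the same order of groups. All 3 silenced groups of ACLY were separate, with an interaction of 0.79 (SE 0.07, limma adjusted p = 1.5e-05). ACAT2 of sterol synthesis, 0.69, and the fatty acid desaturase FADS2, 0.66, made up the called members of the sterol and fatty acid list, 3 of 27 higher and 0 lower beside 3.46% higher over all genes, with a list median of 0.21 that became -0.05 after housekeeping centring, when 1 was called higher and 1 lower.

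PTGS2, the inducible cyclooxygenase, had an interaction of 0.79, and the mucin gene MUC1 one of 0.70. KRT18, a keratin of simple epithelia, read -0.07, 0.10 and -0.03 in siNT, -0.48, -0.61 and -0.52 in siMESH1, 0.39, 0.54 and 0.55 in siATF4 and 0.67, 0.66 and 0.55 in the double knockdown. The lowest double array of KRT18 lay just above the highest siATF4 array, and all of both lay above siNT, and its interaction was 0.67 (SE 0.09, limma adjusted p = 0.00037). Renal epithelial identity gave 3 of 20 higher, beside 3.46% higher over all genes, with KRT19 as the third. KRT19 rose in siATF4 alone (interaction 0.53, or 0.43 without siNT replicate 2). The list median was 0.01, or -0.24 after housekeeping centring, when 0 were called higher and 3 lower. In the unfolded protein response list, 2 of 23 were higher, a small count to be set beside the same 3.46%. They were DERL1 of protein retrotranslocation and the disulfide-forming oxidase ERO1A, and after housekeeping centring 0 of the list were higher and 1 lower.

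With the deposited scaling, negative interactions were fewer than positive ones and mostly modest, whereas after housekeeping centring they were the more frequent. AKR1B10, an aldo-keto reductase that uses NADPH and is a known NRF2 target, departed most. It read 0.04, 0.00 and -0.04 in siNT, 1.71, 1.78 and 1.71 in siMESH1, -0.33, -0.24 and -0.49 in siATF4, and -0.15, -0.25 and -0.34 in the double knockdown. The siMESH1 arrays stood alone, and the double arrays overlapped siATF4. MESH1 knockdown raised AKR1B10 by 3.32-fold in siNT cells, while in siATF4 cells the difference was 0.11 (SE 0.068, limma adjusted p = 0.39). The interaction was -1.63 (SE 0.10, limma adjusted p = 2.3e-06). It was the 1 called gene among 26 measured for NADPH supply and NRF2 targets, beside 4.31% called over all genes. The list median was 0.01, or -0.24 after housekeeping centring, when 3 were called lower.

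SMAD7, an inhibitor of TGF-beta signalling, had the same form. Its siMESH1 arrays read 0.70, 0.70 and 0.57, its siATF4 arrays 0.05, -0.04 and 0.03, and its double arrays -0.01, 0.04 and -0.05, beside 0.11, -0.11 and -0.01 in siNT. Only siMESH1 stood apart, and the interaction was -0.67 (SE 0.09, limma adjusted p = 0.00029). Further genes with a negative interaction were called higher in siMESH1 and not in siATF4. They were the lectin receptor gene CLEC4E and PLXDC2, each -0.96, the endocytic adaptor STON1 at -0.91, the kinase anchor AKAP12 at -0.75 and the heme transporter SLC48A1 at -0.74. SLC48A1 and CLEC4E also rose in siATF4, by 0.4955 and 0.35 (limma adjusted p = 1.2e-05 and 0.035), under the call minimum. Of the 54 genes of this form, 41 were not called in the double knockdown and 13 were called higher, counts that the selection again shapes.

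In 21 genes both single knockdowns raised the transcript and the double knockdown stayed below their sum. TP53I3, an oxidoreductase induced by p53, read -0.03, 0.04 and -0.02 in siNT, 1.02, 1.13 and 1.16 in siMESH1, 0.80, 0.95 and 0.97 in siATF4, and 0.99, 1.01 and 0.90 in the double knockdown. The double arrays overlapped siATF4 and lay just below siMESH1. Its interaction was -1.04 (SE 0.09, limma adjusted p = 9.9e-06). SCG2, a secretory granule protein, read -0.13, 0.25 and -0.12 in siNT, 2.28, 2.42 and 2.44 in siMESH1, 0.78, 0.98 and 0.96 in siATF4 and 2.13, 2.19 and 2.12 in both, so the double arrays lay below siMESH1 and above siATF4, with an interaction of -1.14 (SE 0.13, limma adjusted p = 0.00011). KCNJ13, an inward rectifier potassium channel, had -1.06, and its double mean of 0.46 was nearer to siNT than either single mean. SPRY2, a feedback inhibitor of receptor tyrosine kinase signalling, had -0.66 with means of 0.76, 0.70 and 0.80, and the histone gene H2BC12 -0.65 with means of 1.46, 0.55 and 1.36.

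The p53 targets were the list with the most negative calls, 4 of 19 lower and 0 higher, with a median of -0.21. Over all genes 0.853% were called lower. Besides TP53I3 these were CDKN1A, the cyclin-dependent kinase inhibitor p21, at -0.57, ZMAT3 at -0.57, and the phosphatase PPM1D at -0.51. CDKN1A read -0.03, 0.01 and 0.02 in siNT, 0.53, 0.60 and 0.68 in siMESH1, 0.79, 0.87 and 0.85 in siATF4 and 0.82, 0.94 and 0.82 in the double knockdown, whose arrays overlapped siATF4. ZMAT3 took another form, with a rise of 0.59 in siMESH1 alone and values of -0.38 in siATF4 and -0.36 in both. PPM1D lost its call without siNT replicate 3 (-0.46) and without 3 other single arrays, and under array median centring (-0.48). On linear ratios, in ratio units, CDKN1A (-0.48), ZMAT3 (-0.49) and PPM1D (-0.38) were under the minimum of that scale. After housekeeping centring 8 of the 19 were called lower.

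A small group changed in opposite directions, or more than additively. CXCL6, a neutrophil-attracting chemokine, read 0.05, -0.14 and 0.10 in siNT, -0.85, -0.64 and -0.68 in siMESH1, 1.07, 1.01 and 1.15 in siATF4, and 1.22, 1.32 and 1.40 in the double knockdown. No groups overlapped, and the double arrays were the highest. Its interaction was 0.96 (SE 0.11, limma adjusted p = 9.5e-05). THBD, the thrombin receptor thrombomodulin, followed with 0.88 and the annexin gene ANXA3 with 0.81. In all, 8 genes with opposite single effects had a positive interaction and 1, NKAPD1, a negative one.

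EFEMP1, an extracellular matrix glycoprotein, was the single gene raised by both knockdowns and raised beyond their sum. It read -0.20, 0.11 and 0.10 in siNT, 0.61, 0.56 and 0.64 in siMESH1, 0.97, 0.93 and 0.79 in siATF4, and 2.17, 2.27 and 1.95 in the double knockdown. The groups rose without overlap, and the double mean of 2.13 exceeded the sum of 1.49. The interaction was 0.64 (SE 0.13, limma adjusted p = 0.0082), below the minimum at 0.38 after housekeeping centring. FLG, which encodes filaggrin, was raised by ATF4 knockdown to 1.62, 1.53 and 1.31, and stood at 0.61, 0.41 and 0.49 in the double knockdown, -0.12, -0.28 and -0.28 in siMESH1, and 0.13, -0.19 and 0.06 in siNT. Its siATF4 arrays were the highest and did not overlap the double arrays, with an interaction of -0.76 (SE 0.14, limma adjusted p = 0.0031). MAP1LC3C, an autophagy protein of the LC3 family, went the other way, with means of 1.19 in siATF4 and 1.77 in both and an interaction of 0.86 (SE 0.21, limma adjusted p = 0.019; 0.068 with unmoderated variances).

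Regulators of the integrated stress response are the genes through which ATF4 is best known. Of 19 measured, 0 were called in limma, a count close to the 4.31% called over all genes, so nothing is read from it. Of the same 19, 4 had an adjusted p under 0.05 with a smaller size, 8 had an unadjusted p under 0.05, and the list median was -0.01, or -0.27 after housekeeping centring, when 3 were called lower. ATF3, the stress-induced partner of ATF4, had an interaction of -0.08 (limma adjusted p = 0.71), CTH, which makes cysteine from cystathionine, -0.16 (limma adjusted p = 0.49), and DDIT3, which encodes CHOP, -0.01. The CTH value averages probe sets of opposite sign, 0.10 and -0.41 (limma adjusted p = 0.75 and 0.1). Means in siMESH1, siATF4 and the double knockdown were 0.36, 0.29 and 0.57 for ATF3. They were 0.70, -0.19 and 0.35 for CTH, and -0.13, 0.46 and 0.32 for DDIT3. ATF3 and DDIT3 were not called in siMESH1 against siNT. HERPUD1, of endoplasmic reticulum protein degradation, had -0.33 at a limma adjusted p of 0.0094, smaller than the minimum. VEGFA and E2F1, both at 0.48, also lay just under it. VEGFA averages probe sets at 0.50, 0.64, 0.66 and 0.14 (limma adjusted p = 0.029, 0.005, 0.0027 and 0.49). E2F1 averages 0.29 and 0.68, each at a limma adjusted p of 0.16. A value that missed the rule does not show that a gene was additive, and the median SE of an interaction was 0.10.

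Of the 30 lists described, 8 had no called member, and those not yet named were cytosolic chaperones, smooth muscle contractile genes, autophagy and lysosome, oxidative phosphorylation subunits, and cytosolic and mitochondrial ribosomal proteins. The counts that follow are to be read against the 3.46% of all genes called higher, a share that many of them lie close to, so they describe single genes more than lists. The lists on hypoxia and glycolysis gave 3 of 40 higher, interferon response 2 of 34 (OAS3 and USP18), NF-kB targets 2 of 32 (CXCL6 and PTGS2), amino acid supply 2 of 22, aminoacyl-tRNA synthetases 1 of 17 (WARS1), proteasome subunits 1 of 28 (PSMA5) and ferroptosis and iron handling 1 of 23 (TFRC), each with 0 lower. After housekeeping centring all lists outside cell cycle, DNA replication and DNA repair had a median below 0, and the hypoxia, interferon, NF-kB, amino acid and iron lists then gave 1, 0, 2, 0 and 1 higher and 2, 4, 4, 2 and 3 lower. USP18 (0.48 without siATF4 replicate 3) and PSMA5 (0.46 without siMESH1+siATF4 replicate 1) were under the minimum when single arrays were left out. Extracellular matrix, YAP and TAZ targets, ERK feedback, histones, cilium and neuroendocrine genes each gave 1 higher and 1 lower with the deposited scaling. Most called genes were on no list, 278 of the 414 higher and 91 of the 102 lower.

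**Figure D5:**
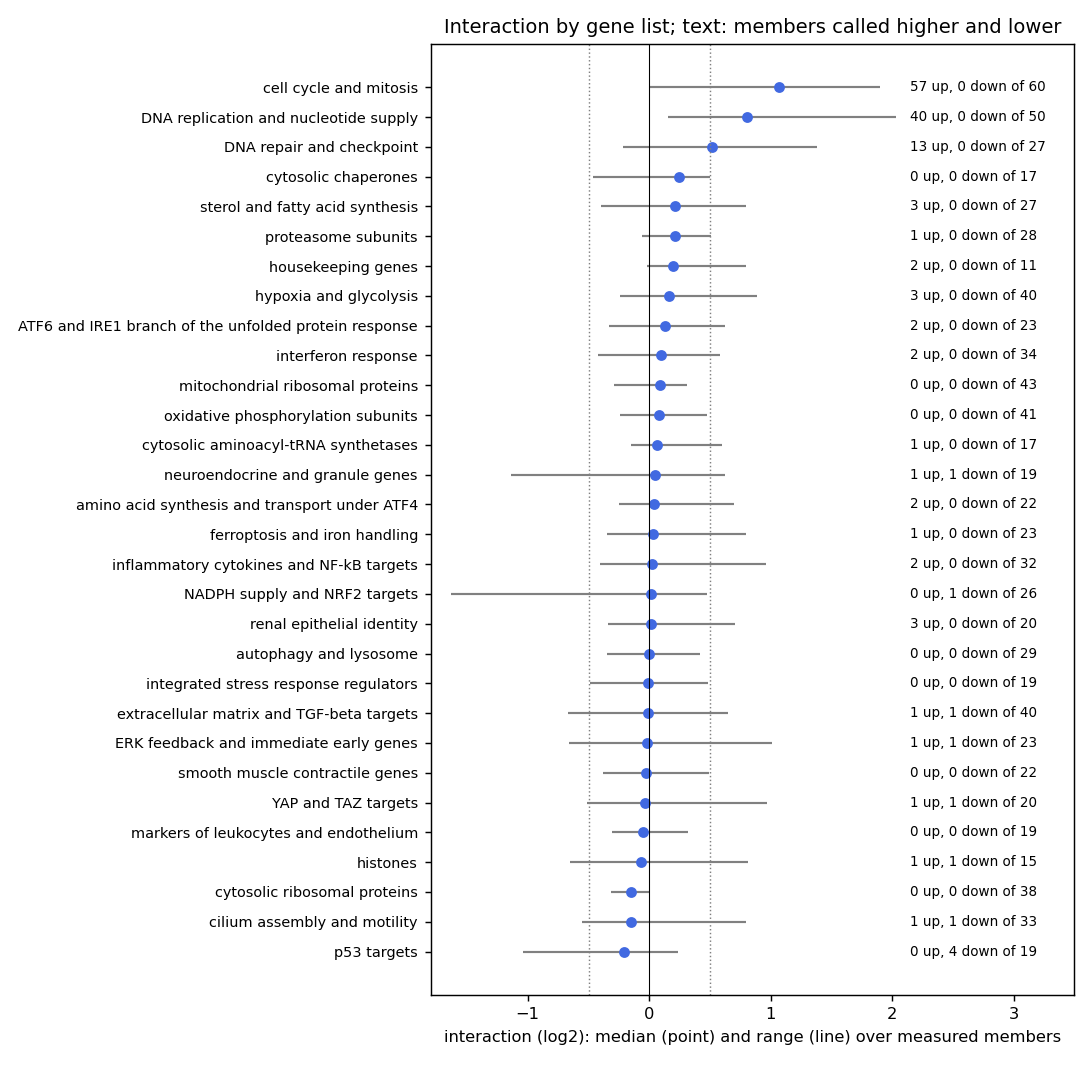
Median (point) and range (line) of the log2 interaction over the measured members of 30 gene lists, with the numbers called higher (up) and lower (down). Cell cycle and mitosis, at a median of 1.07, and DNA replication, at 0.80, lie furthest to the right, and p53 targets, at -0.21, furthest to the left; dotted lines mark the minimum of 0.5.

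At the edge of the rule, SOWAHC lay just inside with a size of 0.5001 and SNX6 just outside with 0.4995, and 908 genes had an adjusted p under 0.05 but a smaller interaction than the minimum. Of 137 called genes with several probe sets, 133 had every probe set on the same side of 0 and 64 had every probe set past the rule. When each array in turn was left out, 392 of the 516 genes, 329 higher and 63 lower, were called in the same direction every time.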

How the data were processed

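Gene expression in RCC4 cells was measured on 12 Affymetrix human expression arrays, 3 per group, and arrays were assigned to groups by the labels, with 0 columns left over. Per the labels and methods, the authors processed the scans with RMA in Affymetrix Expression Console and deposited log2 values relative to the siNT mean. No version is given in the sources used here. Means of the siNT arrays lay within 0.00012 of 0, values ran from -3.77 to 3.41, and no arrays were identical. No level filter was possible, and the number of arrays limits the precision.

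Of 22277 probe sets, 19064 named exactly 1 gene symbol and were averaged into 11963 genes, 4310 of them with several probe sets. The 62 control probe sets were left out, and 3151 with no symbol (2108) or several (1043) were fitted apart. A single limma 3.58.1 fit (R 4.3.3; lmFit, eBayes) of the 4 group means, without a block, had 8 residual degrees of freedom and 4.32 prior ones. Benjamini-Hochberg adjustment ran over all genes tested. The minimum of 0.5 (log2) is the study's fold minimum. Python 3.11.15, pandas 2.3.3, numpy 2.4.6 and matplotlib 3.10.9 prepared tables and figures, and the fit was tested on simulated data.

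The genes, gene lists and motifs were chosen with earlier results of these data known, so no list was tested. Named genes are the targets, genes the study follows, the 20 largest interactions of each sign, the 5 largest of each response form, and up to 4 called members per list; the genes at the edge of the rule are additions. Promoters come from the RefSeq table on GRCh38.p14, for genes with an entry. Replicate numbers were not used as pairs in the main fit. Deviations of same-numbered arrays correlated at -0.191 to 0.095, and those of other-numbered arrays at -0.168 to 0.243. These values cannot show whether the cultures were paired by design. Alternatives covered centring, probe set choice, variance model, scale, fold minimum, a replicate block and leaving out each array.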

Additional observations from a re-analysis of the deposited data

Results flagged for a closer look

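The interaction itself means that the effect of MESH1 knockdown differed between siNT and siATF4 cells, and limma called 516 genes for it. ATAD2, with an interaction of 2.25, drew attention because ATF4 knockdown was called in opposite directions on it, -1.68 in siNT cells and 0.57 in siMESH1 cells. Outside the named genes, 70 of 3151 probe sets with no gene symbol or several were called in the interaction, 48 higher and 22 lower.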

How the results depend on the processing

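Across settings the 516 genes kept the sign of their interaction wherever they were measured, except 1 of the 8 positive genes with opposite single effects on linear ratios. Housekeeping centring gave 1457 calls (196 higher, 1261 lower), linear ratios 186 (118 higher), no fold minimum 1424 (938 higher, 486 lower), a minimum of 1 on the log2 scale 102 (98 higher, 4 lower), and a single probe set per gene 161 lower. Leaving out 1 array at a time gave 478 to 562 calls, 372 to 460 higher and 93 to 121 lower. The fit with the replicate number as a block gave 517 calls, 414 higher and 103 lower, and 507 of the 516 stayed called; among named genes ID4 and MMP7 lost theirs. Array median centring, unmoderated and robust variances and removal of probe sets that may cross-hybridise left the counts within 1.5 times.

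Named genes whose value changed sign were not called in any of these settings. For ATF4, siMESH1+siATF4 minus siATF4 was 0.0579 with housekeeping centring and -0.0606 to 0.054 with 1 array left out (0.054 without siMESH1+siATF4 replicate 2). Interactions under housekeeping centring were -0.245 for ATF4, -0.239 for NADK, -0.226 for DNAJB9, -0.0568 for XBP1 and -0.00944 for CDK2. DDIT3 was 0.017 under array median centring and DNAJB9 -0.0472 on linear ratios (in ratio units). With 1 array left out, interactions ran from -0.0549 to 0.0507 for DDIT3, -0.0367 to 0.0822 for ATF4, -0.0258 to 0.0621 for NADK and -0.00646 to 0.0761 for DNAJB9. Calls of 32 of 116 named genes were lost under housekeeping centring and of 51 on linear ratios, where the minimum is in ratio units. The cause was not tested. The 3 arrays per group, with a median SE of 0.0995, limit what could be called.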
